A study of Mus musculus with 12 samples.

Results

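The lens identity transcription factors were 10 genes, namely Pax6, Six3, Sox2, Tfap2a, Foxe3, Pitx3, Prox1, Maf, Sox1 and Hsf4. They were taken by name alone from the deposited expression tables, which list 45859 genes, and all 10 were found and passed the filter on low values in every comparison. RNA was taken from lens epithelial cells (LCs) that remained on the capsule after fiber cells were removed from lenses of adult 2 month old mice, a model of the state post cataract surgery (PCS). There were 3 libraries for each of 4 conditions, which were wild-type (WT) C57BL/6 mice sampled immediately (0 hours) or 24 hours after the operation and β8ITG-cKO mice of a mixed C57BL/6, 129S1/Sv background at the same times. In the β8ITG-cKO mice an exon of Itgb8, the gene of the β8 integrin subunit, was flanked by loxP sites and cut out by the MLR10-cre transgene, which is active in the lens and no other tissue by design. Each library pooled capsules of several lenses, and genotype, strain background and the Cre transgene cannot be told apart in the comparisons of genotypes.

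Transcription factors of this group act in steps when the lens forms and are kept on in the adult. Pax6, Six3, Sox2 and Tfap2a act in the ectoderm that becomes the lens placode, Foxe3 and Pitx3 keep the epithelium as a dividing single layer, and Prox1, Maf, Sox1 and Hsf4 act as epithelial cells turn into fibers and switch on crystallin genes. Loss of function of several of them gives small, absent or cloudy lenses in mice and humans.

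The region just before the transcription start is shown for 4 members, because these are an epithelial pair and a fiber gene that fell after surgery and the placode gene Pax6, which did not pass the test. The sequences are the 250 bases before the start in RefSeq on GRCm38.p6, written 5′ to 3′ on the strand of the gene, at chr4:114926068-114926317 (minus) for Foxe3, chr19:46148326-46148575 (minus) for Pitx3, chr1:190170828-190171077 (minus) for Prox1 and chr2:105668646-105668895 (plus) for Pax6. Capitals mark the motifs that were found on either strand.
Foxe3: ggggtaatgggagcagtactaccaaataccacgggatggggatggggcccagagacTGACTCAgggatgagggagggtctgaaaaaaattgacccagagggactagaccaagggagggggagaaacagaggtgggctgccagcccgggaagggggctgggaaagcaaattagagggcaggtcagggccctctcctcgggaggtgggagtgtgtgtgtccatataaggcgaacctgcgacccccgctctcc
Pitx3: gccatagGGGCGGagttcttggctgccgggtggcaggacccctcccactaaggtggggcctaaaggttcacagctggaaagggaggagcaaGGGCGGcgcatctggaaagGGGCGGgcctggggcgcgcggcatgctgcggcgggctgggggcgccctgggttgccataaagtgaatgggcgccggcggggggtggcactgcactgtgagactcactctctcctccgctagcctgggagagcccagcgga
Prox1: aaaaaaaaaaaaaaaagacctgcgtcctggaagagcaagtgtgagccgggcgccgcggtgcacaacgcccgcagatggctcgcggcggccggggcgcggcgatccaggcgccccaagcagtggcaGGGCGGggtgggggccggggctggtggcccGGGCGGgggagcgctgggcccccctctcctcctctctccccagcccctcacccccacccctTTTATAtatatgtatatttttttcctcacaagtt
Pax6: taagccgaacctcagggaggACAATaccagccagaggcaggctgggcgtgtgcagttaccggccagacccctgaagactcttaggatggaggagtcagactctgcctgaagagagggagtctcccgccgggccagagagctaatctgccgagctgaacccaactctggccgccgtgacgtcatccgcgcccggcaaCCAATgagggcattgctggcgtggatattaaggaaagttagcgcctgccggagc
In Foxe3 the capitals are an AP-1 site, TGACTCA, which 4.43% of the 27025 promoters searched hold. In Pitx3 and Prox1 the GGGCGG matches are GC boxes, present in 33.0% of promoters, and the run TTTATA in Prox1 is a TATA box, TATAAA, read on the other strand and present in 13.0%. In Pax6 the capitals are a SOX core, ACAAT, held by 28.2% of promoters, and a CCAAT box, held by 34.5%. The other motifs searched were TAATCC for homeodomain proteins of the Pitx type (6.37% of promoters), TGCTGA as the core of the Maf recognition element (15.8%) and GAANNTTC as the core of a heat shock element (6.79%). Of 8 members with an entry, 5 held a GC box, 4 held a CCAAT box, 1 each held the TATA box, the SOX core, the Maf core and the AP-1 site, and 0 held the Pitx-type site or the heat shock core. A match of letters is a description of the sequence and not evidence of binding, and matches of different motifs did not overlap in these windows. Maf and Hsf4 were not matched.

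FPKM count fragments per kilobase of transcript, scaled to the size of the library, so levels can be compared between genes per unit of length. In WT LCs at 0 hours PCS, Prox1 (94.3 ± 5.37 FPKM, SD, n = 3) and Pax6 (90.5 ± 2.62) were the highest members, and their libraries overlapped. Foxe3 followed at 74.3 ± 3.83 FPKM. Maf (43.8 ± 2.88) and Tfap2a (42.4 ± 2.38) overlapped each other. Below them came Pitx3 at 33.1, Six3 at 28.0, Sox2 at 21.8, Sox1 at 15.9 and Hsf4 at 6.89 FPKM, each without overlap with its neighbours. Thus the general eye field gene Pax6 and the fiber gene Prox1 stood together at the top, and the heat shock factor Hsf4 was the least abundant. At 24 hours PCS the first place was held by Pax6 in WT (78.7 ± 3.01 FPKM) and in β8ITG-cKO LCs (70.3 ± 9.83), while Foxe3 led in β8ITG-cKO LCs at 0 hours (142 ± 33.7). Hsf4 was the lowest member in all 4 conditions. The median coefficient of variation over the 10 members was 5.89% in WT at 0 hours and 10.8% at 24 hours. In β8ITG-cKO LCs it was 6.59% at 0 hours and 14.0% at 24 hours. Either Foxe3 or Hsf4 varied most in each condition, though Hsf4 varied least in WT at 24 hours (2.45%). The highest values were 29.3% (Hsf4) in WT at 0 hours and 28.4% (Foxe3) at 24 hours. In β8ITG-cKO LCs they were 23.8% (Foxe3) at 0 hours and 50.8% (Hsf4) at 24 hours.

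**Figure D1:**
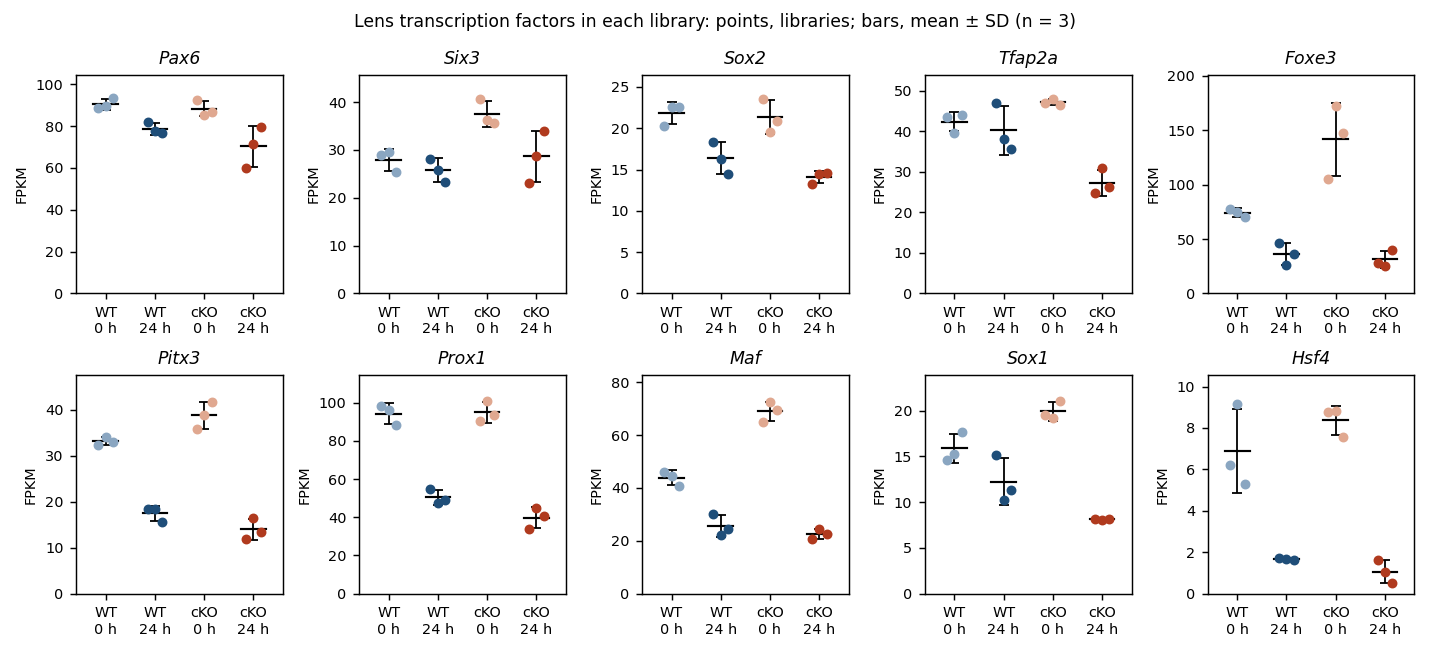
Each panel plots 1 transcription factor in FPKM, with 1 point for each library and bars for the mean ± SD (n = 3) in WT and β8ITG-cKO (cKO) LCs at 0 hours and 24 hours PCS. Foxe3, Pitx3, Prox1, Maf, Hsf4, Sox2 and Pax6 are lower at 24 hours in both genotypes without overlap. The values of Pax6 lie between 59.9 and 93.5 FPKM.

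All 12 libraries are on 1 scale, since a library had the same FPKM in each table it was part of. Summed FPKM ran from 446531 to 740140 and the 10 highest genes took 36.0% to 49.6% of the sum. How many reads were sequenced is unknown, and relative depths, read from the spacing of low FPKM, were 0.871 to 1.093. Itgb8 itself cannot check the labels, because its FPKM cover all exons and only 1 exon is removed: it had 7.26, 10.8 and 8.42 FPKM in WT and 6.83, 4.58 and 7.31 FPKM in β8ITG-cKO LCs at 0 hours, and 9.08, 8.38 and 9.58 FPKM in WT and 9.28, 11.8 and 10.3 FPKM in β8ITG-cKO LCs at 24 hours. Its difference between genotypes passed at neither time (−0.45, adjusted p = 0.209, and 0.19, adjusted p = 0.486), and it rose over time in β8ITG-cKO LCs (0.68, adjusted p = 0.0132). Fewer cells of a type and less RNA per cell cannot be told apart in such bulk RNA. Retinal RNA varied between libraries. The summed FPKM of 10 photoreceptor markers were 346, 1175 and 139 in WT at 0 hours, 74.7, 131 and 141 in WT at 24 hours, 333, 180 and 267 in β8ITG-cKO at 0 hours, and 1011, 863 and 1007 in β8ITG-cKO at 24 hours. WT 0 hours replicate 2 and all 3 β8ITG-cKO libraries at 24 hours therefore held the most. This bears on any member that retinal cells express as well, Pax6, Six3 and Sox2 among them.

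The first comparison asked how the lens transcription factors change in WT LCs in the first day PCS. Hsf4, Foxe3, Pitx3, Prox1 and Maf, which are the epithelial pair and all fiber regulators but Sox1, fell by 1.71-fold to 4.11-fold. None of the 4 placode genes passed the test, and no member rose, although 20.9% of all genes did. Thus 5 of 10 members were lower at an adjusted p of at most 0.05 (limma-trend on log2(FPKM + 1), Benjamini-Hochberg), where 8.81% of the 15146 genes tested were lower. The libraries of both times did not overlap for 7 members, all lower at 24 hours, against 15.6% of all genes. Foxe3, Pitx3 and Prox1 are also on a list of lens genes that the study drew from these libraries, so their fall is not independent evidence of a direction.

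Positions are those of the GENCODE annotation of GRCm38. Hsf4, a heat shock family factor needed for fiber maturation, lies on chromosome 8 from 105269801 to 105275845 and has up to 13 exons. It had 6.19, 9.17 and 5.32 FPKM at 0 hours and 1.71, 1.70 and 1.63 FPKM at 24 hours. The late libraries were nearly equal and all lay far below the early ones, a fall of 1.53 on the log2(FPKM + 1) scale (SE 0.20, adjusted p = 0.00196). The scale understates the change of so low a gene. Foxe3, a forkhead factor of the epithelium encoded by 1 exon on chromosome 4 from 114925147 to 114926013, had 78.0, 74.6 and 70.4 FPKM and then 46.8, 26.2 and 35.9 FPKM. All 3 later libraries were lower, though spread, and the difference was −1.05 (SE 0.21, adjusted p = 0.0091). Pitx3, a homeodomain factor of the epithelium on chromosome 19 from 46135685 to 46148326, went from 32.3, 34.1 and 32.9 FPKM to 18.4, 18.5 and 15.5 FPKM. Its libraries were tight at both times and did not overlap (−0.89, SE 0.13, adjusted p = 0.00303).

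Prox1, the homeobox factor of fiber elongation on chromosome 1 from 190118035 to 190170714, had 98.4, 96.2 and 88.2 FPKM at 0 hours and 55.0, 47.5 and 49.1 FPKM at 24 hours. It thus changed as much as Pitx3 and again without overlap (−0.89, SE 0.14, adjusted p = 0.00335). Maf, the bZIP factor that binds crystallin promoters, on chromosome 8 from 115682942 to 115707794, had 46.2, 44.7 and 40.6 FPKM and then 30.2, 22.3 and 24.4 FPKM. Every early library was above every late one (−0.76, SE 0.15, adjusted p = 0.0096). Sox1, a SOXB1 factor needed for γ-crystallin expression, on chromosome 8 from 12395295 to 12400126, was 14.6, 15.3 and 17.7 FPKM and then 15.1, 10.3 and 11.3 FPKM. WT 24 hours replicate 1 lay inside the range of the early libraries, and the difference of −0.36 did not pass (adjusted p = 0.152).

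Among the placode genes, Sox2, the SOXB1 partner of Pax6 on chromosome 3 from 34650405 to 34652461, had 20.3, 22.6 and 22.6 FPKM at 0 hours and 18.3, 16.3 and 14.5 FPKM at 24 hours. The groups did not overlap, but the difference of −0.40 (95% interval −0.72 to −0.07) did not pass after adjustment (adjusted p = 0.0664). Pax6, the paired-box factor on chromosome 2 from 105668900 to 105697364, had 88.6, 89.4 and 93.5 FPKM and then 82.1, 77.5 and 76.5 FPKM. These libraries did not overlap either, and the interval of the difference was −0.50 to 0.10 (adjusted p = 0.269). Six3, a homeodomain factor on chromosome 17 from 85613608 to 85629302, had 28.9, 29.6 and 25.4 FPKM and then 28.2, 25.9 and 23.3 FPKM. Tfap2a, an AP-2 factor on chromosome 13 from 40715302 to 40738376, had 43.6, 39.6 and 43.9 FPKM and then 47.1, 38.1 and 35.6 FPKM. For both, the times overlapped, and the differences were −0.11 (adjusted p = 0.566) and −0.08 (adjusted p = 0.712). The median gene of this comparison was higher by 0.16 at 24 hours. When libraries were rescaled to the same median, 9 of 10 members were lower, all but Tfap2a. The share of all genes that were lower after rescaling was not counted. The study's own criteria of a change of more than 2-fold, of more than 2 FPKM and to or from a level of 2 FPKM or higher were met by Foxe3 and Hsf4, and by 3.92% of all genes in that direction.

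**Figure D2:**
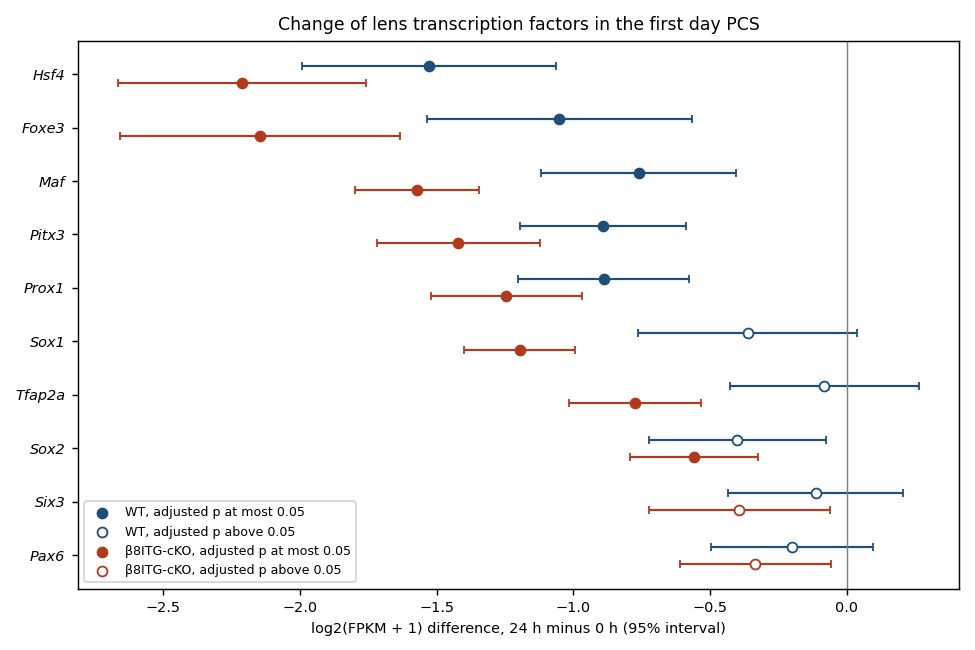
The difference of log2(FPKM + 1) between 24 hours and 0 hours PCS is plotted for each transcription factor in WT and β8ITG-cKO LCs, with bars for the 95% interval and filled points for an adjusted p of at most 0.05. In WT 5 filled points lie left of 0 and in β8ITG-cKO 8, and Pax6 and Six3 are open in both.

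The same change was then measured in β8ITG-cKO LCs. Here 8 of 10 members fell, namely Hsf4, Foxe3, Maf, Pitx3, Prox1, Sox1, Tfap2a and Sox2, by 1.51-fold to 7.85-fold, against 10.7% of the 15237 genes tested, and no member was among the 35.4% that rose. All 10 members were lower at 24 hours in every library, which held for 14% of all genes. Pax6 and Six3 were the members that did not pass. The study's criteria were met by 6 members, where 3.77% of all genes met them in this direction.

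Foxe3 had 105, 172 and 147 FPKM at 0 hours and 27.7, 25.5 and 40.3 FPKM at 24 hours. The early libraries were the most spread of any member in this group and still lay far above the late ones (−2.15, SE 0.22, adjusted p = 0.000223). Pitx3 had 35.8, 38.9 and 41.7 FPKM and then 11.9, 16.5 and 13.4 FPKM, a difference of −1.42 (SE 0.13, adjusted p = 0.000129). Hsf4 had 8.76, 8.80 and 7.55 FPKM and then 1.61, 1.06 and 0.525 FPKM, with β8ITG-cKO 24 hours replicate 3 the lowest value of any member (−2.21, SE 0.20, adjusted p = 0.000114). Both epithelial factors and Hsf4 thus separated by time without overlap. Maf had 65.0, 72.3 and 69.5 FPKM and then 20.7, 24.6 and 22.4 FPKM, a 3.06-fold fall in tight replicates (−1.57, SE 0.10, adjusted p = 2.93e-05). Prox1 had 90.2, 101 and 93.8 FPKM and then 33.8, 44.9 and 40.4 FPKM (−1.24, SE 0.12, adjusted p = 0.000168). For both fiber regulators no late library reached an early one. Sox1 went from 19.5, 19.1 and 21.1 FPKM to 8.18, 8.04 and 8.15 FPKM (−1.20, SE 0.09, adjusted p = 5.09e-05), and its 3 late libraries were almost equal.

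Tfap2a had 47.0, 47.9 and 46.5 FPKM at 0 hours and 24.7, 30.9 and 26.2 FPKM at 24 hours in β8ITG-cKO LCs. It fell 1.73-fold (−0.77, SE 0.10, adjusted p = 0.000776), with all early libraries close together. Sox2 had 23.6, 19.6 and 20.9 FPKM and then 13.3, 14.5 and 14.6 FPKM (−0.56, SE 0.10, adjusted p = 0.00317). Pax6 had 92.6, 85.5 and 87.0 FPKM and then 59.9, 71.7 and 79.4 FPKM. Its late libraries were spread but all below the early ones, and the difference of −0.33 did not pass (adjusted p = 0.0515). Six3 had 40.7, 36.3 and 35.5 FPKM and then 23.1, 28.8 and 34.0 FPKM, again without overlap, and −0.39 did not pass (adjusted p = 0.0554). Without β8ITG-cKO 24 hours replicate 3 both passed, so that 10 members were lower. The median gene had been higher by 0.23, and with libraries rescaled to the same median 10 members were lower as well. The share of all genes that were lower was not counted in either of these fits.

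Retinal markers moved in the same comparison. All 10 photoreceptor markers rose in β8ITG-cKO LCs, Sag (from 43.5 ± 9.29 to 195 ± 39.5 FPKM) among them. Of 14 markers of inner retinal cells 8 were tested and 7 rose, where 35.4% of all genes did. The summed FPKM of those 14 genes were 44.1, 33.5 and 38.4 at 0 hours and 62.3, 73.8 and 107.5 at 24 hours. Within the late β8ITG-cKO libraries Pax6 and Six3 were lowest in replicate 1 and highest in replicate 3, the order of the inner retinal sum. In WT at 24 hours that sum was 19.4, 39.5 and 45.9 FPKM, and Pax6 and Six3 were in the reverse order, highest in replicate 1 and lowest in replicate 3. In WT, 1 of the 10 photoreceptor markers and 2 inner retinal markers (Slc6a9 and Trpm1) fell, where 8.81% of all genes did. The share of retinal RNA in the values of Pax6, Six3, Sox2 or any other member was not tested. In WT at 0 hours, replicate 2 held the highest sums of photoreceptor markers (1175 FPKM) and of inner retinal markers (91.2 FPKM against 59.7 and 45.9), and there Pax6 (89.4 FPKM) lay between the other libraries, Six3 (29.6 FPKM) was the highest by less than 1 FPKM and Sox2 (22.6 FPKM) was level with replicate 3.

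**Figure D3:**
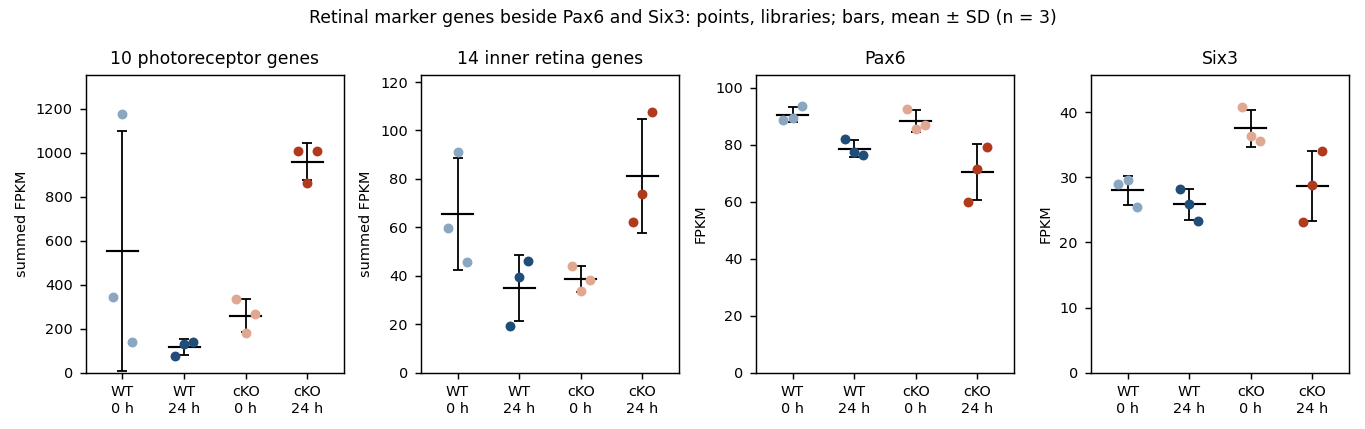
The summed FPKM of 10 photoreceptor markers and of 14 inner retinal markers are plotted beside the FPKM of Pax6 and Six3, with 1 point for each library and bars for the mean ± SD (n = 3). Both marker sums have their highest mean in β8ITG-cKO (cKO) LCs at 24 hours, where Pax6 has its lowest mean of 70.3 FPKM, and the highest single photoreceptor sum, 1175 FPKM, is in WT at 0 hours.

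The genotypes were then compared at 24 hours PCS. None of the 10 members differed between β8ITG-cKO and WT LCs at an adjusted p of at most 0.05 by limma, where 0.644% of the 15366 genes tested were lower and 6.29% differed in either direction. The members with the smallest p before adjustment were Tfap2a, Sox1 and Prox1, all with lower means in β8ITG-cKO LCs. Tfap2a, at 27.3 ± 3.25 FPKM in β8ITG-cKO and 40.2 ± 6.03 FPKM in WT, differed by −0.54 (95% interval −0.90 to −0.18, adjusted p = 0.0942). Sox1, at 8.12 ± 0.0752 FPKM against 12.2 ± 2.55 FPKM, differed by −0.52 (95% interval −0.89 to −0.15, adjusted p = 0.114). Both passed when the spread was estimated over all 12 libraries (adjusted p = 0.0161 and 0.0289). The share of all genes that passed in that fit was not counted. The libraries of the genotypes did not overlap for 4 members, Prox1, Sox1, Hsf4 and Tfap2a, all lower in β8ITG-cKO LCs, against 9% of all genes. For the remaining members the interval of the difference bounds what could be missed: −0.79 to 0.38 for Foxe3, −0.67 to 0.05 for Pitx3, −0.52 to 0.19 for Maf, −0.51 to 0.17 for Pax6, −0.50 to 0.12 for Sox2 and −0.26 to 0.52 for Six3. All 10 photoreceptor markers and 3 of 8 tested inner retinal markers were higher in β8ITG-cKO LCs in this comparison, and Six3 was the member whose difference was above 0 (0.13).

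At 0 hours PCS, just after fiber removal, Foxe3 and Maf were higher in β8ITG-cKO than in WT LCs. Foxe3 was at 142 ± 33.7 FPKM against 74.3 ± 3.83 FPKM, 1.90-fold (log2 difference 0.89, SE 0.18, adjusted p = 0.0278), and each of the 3 β8ITG-cKO libraries was above each WT library. Maf was at 68.9 ± 3.70 FPKM against 43.8 ± 2.88 FPKM, 1.57-fold (0.64, SE 0.10, adjusted p = 0.0154), also without overlap. Thus 2 of 10 members were higher, where 4.18% of the 14708 genes tested were. The libraries did not overlap for 6 members, all higher in β8ITG-cKO LCs, which were Foxe3, Maf, Sox1, Six3, Pitx3 and Tfap2a, against 18% of all genes. Six3, at 37.5 ± 2.81 FPKM against 28.0 ± 2.28 FPKM, did not pass (0.41, 95% interval 0.16 to 0.66, adjusted p = 0.0630), nor did Sox1 (0.31, adjusted p = 0.129). Pax6 (−0.03, 95% interval −0.25 to 0.18), Sox2 (−0.03) and Prox1 (0.01, 95% interval −0.22 to 0.24, and −0.012 with libraries rescaled to the same median) were the members nearest to no difference.

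**Figure D4:**
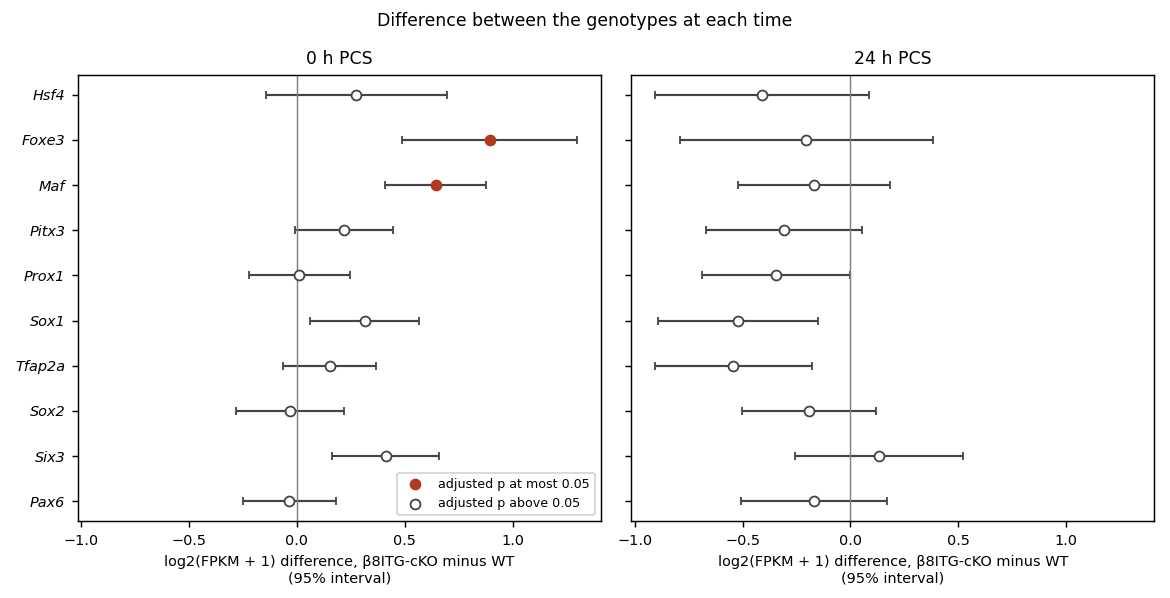
The difference of log2(FPKM + 1) between β8ITG-cKO and WT LCs is plotted for each transcription factor at 0 hours and at 24 hours PCS, with bars for the 95% interval and filled points for an adjusted p of at most 0.05. Foxe3 at 0.89 and Maf at 0.64 are the filled points at 0 hours, and at 24 hours all points are open.

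These 0 hours calls rested on few libraries. Without single libraries in turn, 0 to 2 members passed: 0 without WT replicate 1, β8ITG-cKO replicate 2 or β8ITG-cKO replicate 3, and 1 without WT replicate 2 or WT replicate 3. The highest adjusted p was 0.113 for Foxe3 and 0.0855 for Maf. The share of all genes that passed in these fits was not counted. Markers of other tissues differed in the same libraries. The summed FPKM of 7 corneal epithelium genes were 208 to 269 in WT and 536 to 912 in β8ITG-cKO LCs, nearly all of it Aldh3a1, while the defining corneal keratin Krt12 was at most 1.27 FPKM at 0 hours. The summed FPKM of 6 corneal stroma genes were 343 to 382 and 538 to 595, carried by Aldh1a1, with the defining gene Kera at most 0.129 FPKM. Of the 4 stroma genes tested 3 were higher in β8ITG-cKO LCs, Aldh1a1 and Col6a3 among them, and Dcn was lower (−1.63, adjusted p = 0.00303). Globin and other red blood cell genes (5 in all, each lower in β8ITG-cKO) summed to 68.0 to 153 FPKM in WT and 6.52 to 15.8 FPKM in β8ITG-cKO LCs. Their part in the difference of Foxe3 and Maf was not tested.

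Whether the change of a member over time differed between the genotypes was asked of the genotype by time interaction, fitted over all 12 libraries. The change of Maf, Sox1 and Tfap2a was more negative in β8ITG-cKO LCs, 3 of 10 members, where 2.56% of the 15262 genes tested were lower. In WT the changes of Sox1 and Tfap2a had not passed. The difference between the changes was −0.81 for Maf (SE 0.18, adjusted p = 0.0167), −0.84 for Sox1 (SE 0.19, adjusted p = 0.0202) and −0.69 for Tfap2a (SE 0.17, adjusted p = 0.0304). For Maf it was made of a higher level at 0 hours and levels that overlapped at 24 hours, 22.6 ± 1.98 FPKM in β8ITG-cKO and 25.6 ± 4.13 FPKM in WT. For Sox1 and Tfap2a the β8ITG-cKO means were above WT at 0 hours and below it at 24 hours. Foxe3 had the most negative estimate, −1.10 (95% interval −1.82 to −0.38), and did not pass (adjusted p = 0.0604). The interaction contains both genotype comparisons, so it is not a separate support for either. Leaving out single libraries gave 1 to 4 members, and the share of all genes was not counted in those fits. Maf passed in all 12 such fits, Sox1 missed in 2 of 12 (highest adjusted p 0.0570) and Tfap2a in 8 of 12 (highest 0.0733). Maf is also made by macrophages, and 10 leukocyte genes summed to 3.15 to 5.96 FPKM in WT and 4.27 to 6.19 FPKM in β8ITG-cKO LCs at 0 hours, and to 54.5 to 68.9 FPKM and 20.9 to 45.1 FPKM at 24 hours. Of the leukocyte genes tested, 5 of 7 in WT and 5 of 8 in β8ITG-cKO LCs rose, where 20.9% and 35.4% of all genes did. S100a8 and S100a9, which neutrophils express, were among those that rose. The macrophage gene Cd68 rose in WT (2.53, adjusted p = 0.00016) and in β8ITG-cKO LCs (1.72, adjusted p = 0.00107), as did Itgam (3.09 and 2.50). The macrophage genes Csf1r (−0.12 in WT and 0.16 in β8ITG-cKO LCs) and Mrc1 (−0.31 and 0.40) did not pass in either genotype. The part of leukocytes in the Maf values was not tested.

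Several members share their locus with noncoding or overlapping genes, and the noncoding RNAs at Sox2 and Six3 fell in both genotypes. Sox2ot, a long noncoding RNA that spans Sox2 on the same strand, had 59.4, 52.3 and 45.8 FPKM in WT at 0 hours and 11.96, 6.84 and 7.74 FPKM at 24 hours. It was thus far lower in every late library (−2.47, adjusted p = 0.000384), where Sox2 differed by −0.40. In β8ITG-cKO LCs Sox2ot went from 61.0, 57.1 and 61.7 FPKM to 7.18, 8.36 and 6.94 FPKM (−2.85, adjusted p = 2.51e-06), where Sox2 fell by 0.56. The ratio of Sox2ot to Sox2 FPKM was 2.03 to 2.93 at 0 hours and 0.421 to 0.652 at 24 hours in WT, and 2.59 to 2.96 and 0.475 to 0.576 in β8ITG-cKO LCs. The ratios of early and late libraries did not overlap, and 0.1 is the smallest two-sided p that an exact permutation test of 3 against 3 can give. Six3os1, transcribed opposite to Six3, had 28.6, 24.2 and 32.5 FPKM and then 10.4, 8.32 and 7.64 FPKM in WT (−1.59, adjusted p = 0.000867). In β8ITG-cKO LCs it had 24.3, 26.6 and 26.8 FPKM and then 7.47, 9.34 and 9.14 FPKM (−1.48, adjusted p = 5.24e-05). No early and late libraries of either RNA overlapped, and the ratio of Six3os1 to Six3 went from 0.818 to 1.28 down to 0.321 to 0.370 in WT.

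**Figure D5:**
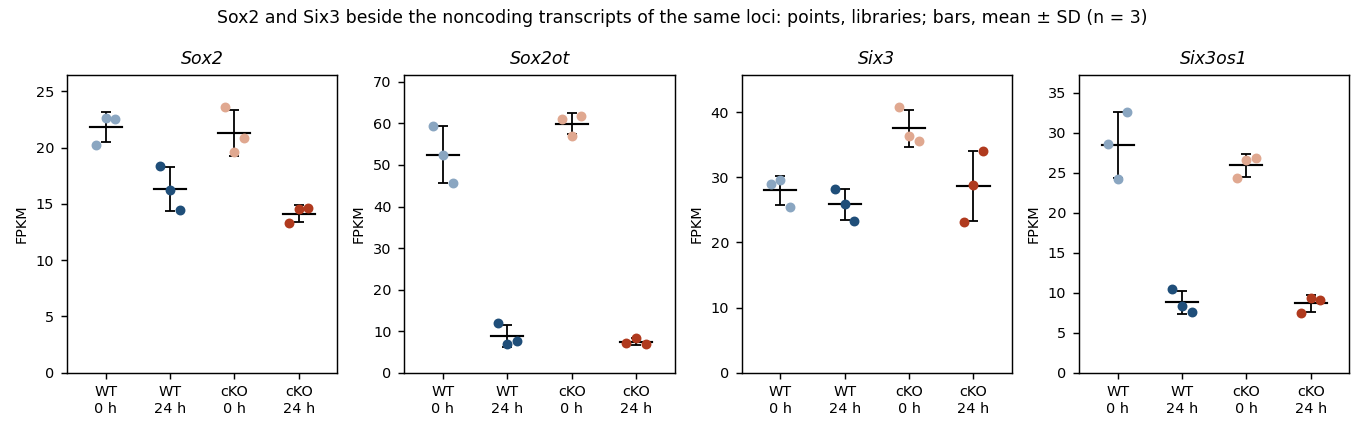
Sox2 and Six3 are plotted beside Sox2ot and Six3os1, the noncoding RNAs of their loci, in FPKM, with 1 point for each library and bars for the mean ± SD (n = 3). Sox2ot is at 45.8 FPKM or more at 0 hours and at 11.96 or less at 24 hours in both genotypes. Sox2 lies between 13.3 and 23.6 FPKM and is also lower at 24 hours without overlap in both genotypes.

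Pax6os1, antisense to Pax6, was at 1.07 ± 0.403 FPKM in WT at 0 hours and 0.522 ± 0.231 FPKM at 24 hours, and did not pass in WT (−0.43, adjusted p = 0.169) or β8ITG-cKO LCs (−0.10, adjusted p = 0.538). Nol3, a neighbour of Hsf4, fell by 0.94 in WT (adjusted p = 0.00518) and by 1.17 in β8ITG-cKO LCs (adjusted p = 0.00084), from 21.7 ± 3.69 to 10.8 ± 0.829 FPKM in WT. Fbxl8, the other neighbour of Hsf4, stayed under 1 FPKM. In the comparisons of genotypes none of these 5 genes passed. The deposited coordinates of Pax6, Sox2, Six3, Pitx3, Sox1, Prox1 and Tfap2a cover a locus shared with other genes, and the library kit kept strand but the strand setting of the counting is not given in the sources used here, so reads of overlapping partners may be shared.

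Of 36 other genes with a known part in lens development, 35 were tested. In WT LCs 11 fell and 5 rose, where 8.81% of all genes fell and 20.9% rose, and in β8ITG-cKO LCs 12 fell and 12 rose, where 10.7% fell and 35.4% rose. The largest changes in WT were in the cell cycle inhibitor Cdkn1c (51.5 to 9.81 FPKM, −2.30, adjusted p = 0.000386), the receptor gene Fgfr3 (−1.64, adjusted p = 0.00154) and Etv4, an ETS factor downstream of FGF, which rose by 1.54 (adjusted p = 0.00182). The median change of the 35 was −0.22 in WT, where the members' median was −0.58 and that of all genes 0.16. Between genotypes at 24 hours 2 of the 35 differed, Otx2 and Rax, where 6.29% of all genes did. Both were higher in β8ITG-cKO LCs and both are also retinal genes. At 0 hours 1 of the 35 differed, Mab21l1 (53.9 ± 5.30 against 26.9 ± 1.04 FPKM), where 4.18% of all genes were higher. These 3 are named after their values were seen.

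Crystallins are the class of genes that Pax6, Maf, Prox1, Sox1 and Hsf4 are known to regulate. They fell in 13 of 16 cases in WT and 16 of 16 in β8ITG-cKO LCs, with medians of −2.36 and −2.86. Of all genes, 8.81% fell in WT and 10.7% in β8ITG-cKO LCs. Cryaa, 1 of the 3 that did not pass in WT, was listed at 0 in WT 0 hours replicate 2 while no other library had less than 8385 FPKM, and such a 0 can be a failed estimate. In WT the largest falls were in Crygb (324 ± 18.1 to 1.47 ± 0.661 FPKM, −7.07), Crygd (−6.91) and Crygc (−6.49). Of 14 other fiber genes, 13 were tested over time, and 10 fell in WT and 11 in β8ITG-cKO LCs. Lenep (−4.24), the water channel gene Mip (−3.13) and Lim2 (−3.01) changed most in WT. At 24 hours PCS 0 of 14 tested crystallins and 0 of 12 fiber genes differed between the genotypes, where 6.29% of all genes did. In the interaction 0 of 16 and 0 of 13 passed. The study's own list of lens genes includes genes of both classes, so their direction is not independent of it either.

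Across the 12 libraries the genes whose log2(FPKM + 1) followed a member most closely were named by Pearson's r among 7286 genes that averaged 5 FPKM or more. Cryab, a small heat shock crystallin, was nearest to Pitx3 (r = 0.99), going from 11614 to 4554 FPKM in WT. The basement membrane protein gene Sparc and the integrin gene Itgb5 were nearest to Foxe3 (0.99 and 0.98), and both were highest in β8ITG-cKO LCs at 0 hours. Prox1 was followed by Mme and Mxra7 (0.99 each), Maf by Tkt and Sdc2 (0.99 each), and Pitx3 also by Fat1 (0.98). Sox1 was followed by Sall1 (0.97), and Hsf4 by Sesn3 and Gm11837 (0.98 each). For Sox2 the nearest were Plekhh2 and Prkab2 (0.96 each), for Six3 Gtf2i (0.95) and Tmub1 (0.94), for Tfap2a Prkci (0.92) and Scel (0.91), and for Pax6 Gab1 (0.91) and Arhgap31 (0.90). The placode genes Pax6, Tfap2a, Six3 and Sox2 had the least close followers. A lower r is to be awaited for a gene that varies little between conditions, so no conclusion was drawn from this order. These r describe 12 points that fall into 4 conditions and share library and depth, and many genes with the same change over time would score alike.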

How the data were processed

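RNA-Seq was compared in 12 libraries, 3 for each of 4 conditions, which the labels call biological replicates. The authors prepared stranded total RNA libraries and deposited Cuffdiff's FPKM for 45859 genes and each library in 4 tables. The submitters' processing notes name FastQC, cutadapt 1.12, TopHat2 2.1.0, Cuffdiff 2.2.1, mm10 and GRCm38.p5. The deposited tables also hold 16 columns of group values and the authors' own fold changes, p-values and q values, and none of these was used. No read counts entered the work, the depth is thus unknown and counting error cannot be given; relative depths were 0.871 to 1.093.

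For each comparison limma-trend with eBayes (limma 3.58.1, R 4.3.3) was run on log2(FPKM + 1) over all genes that averaged 0.5 FPKM or more in the libraries fitted, with Benjamini-Hochberg adjustment, and a gene passed at an adjusted p of at most 0.05. Each pair of conditions was fitted on its own 6 libraries, and the interaction on all 12. The 4 pairwise comparisons share conditions and are not independent of each other. The fits were tested on simulated data. The spread is that between libraries, each a pool of capsules.

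The 10 members and 13 gene lists (other lens regulators, family relatives, crystallins, fiber genes, lens epithelium, antisense and overlapping genes, photoreceptors, inner retina, pigment cells, corneal epithelium, corneal stroma, leukocytes and red blood cells) were chosen with earlier results of these data known. Genes named are the members, the 2 genes of highest Pearson's r with each member, up to 3 genes of each list with the largest change among those that passed in WT over time, the 2 genes of highest mean in each list of another tissue, the antisense and overlapping genes found (5 of 8), and Itgb8. Some genes that this rule names are not reported here. Positions came from GENCODE on GRCm38: 73.8% of the symbols had 1 match there, and 99.9% of those overlapped the deposited position. Promoters came from RefSeq on GRCm38.p6, where 8 of 10 members matched.

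Alternatives were the study's criteria as an added condition, a pseudocount of 0.1, no filter, a filter at 2 FPKM, libraries rescaled to share 1 median across genes that averaged 2 FPKM or more, no mean-variance trend, 1 fit over all 12 libraries, the replicate number as a block, and each library left out. Python 3.11.15 served for the other steps, with numpy 2.4.6, pandas 2.3.3 and matplotlib 3.10.9.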

Additional observations from a re-analysis of the deposited data

Results flagged for a closer look

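The change of 3 members over time differed between the genotypes by the test of genotype and time over all 12 libraries (limma, adjusted p of at most 0.05). The change in the first day PCS was more negative in β8ITG-cKO than in WT LCs for each. The differences on the log2(FPKM + 1) scale were −0.81 for Maf (adjusted p = 0.0167), −0.84 for Sox1 (adjusted p = 0.0202) and −0.69 for Tfap2a (adjusted p = 0.0304). In β8ITG-cKO LCs each of these genes was lower in all 3 late libraries than in all 3 early ones, and in WT LCs this held for Maf but not for Sox1 or Tfap2a. Leaving out single libraries gave 1 to 4 members that differed, and the share of all genes was not counted in those fits. Maf passed in all 12 of these fits, Sox1 missed in 2 of 12 (highest adjusted p 0.0570) and Tfap2a in 8 of 12 (highest adjusted p 0.0733). No explanation was tested.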

How the results depend on the processing

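Of 699 values of single members under the alternatives, 652 kept their direction and their side of the threshold, 22 lost the call, 20 gained it and 5 changed sign, the last all of differences near 0. Those were Tfap2a over time in WT (−0.20 to 0.0010 with single libraries left out, above 0 without WT 24 hours replicate 3) and, between genotypes at 0 hours, Prox1 (−0.012 with rescaling, and −0.036 to 0.046 with single libraries left out, below 0 without WT 0 hours replicate 3 or β8ITG-cKO 0 hours replicate 2) and Sox2 (−0.10 to 0.025, above 0 without β8ITG-cKO 0 hours replicate 2). With the study's criteria added, 2 members were lower over time in WT and 0 differed between genotypes at 0 hours. With rescaling 9 were lower in WT and 10 in β8ITG-cKO LCs over time. At 0 hours 3 were then higher in β8ITG-cKO LCs, with Six3 gained (adjusted p = 0.0335). In the interaction 4 passed, with Pitx3 gained (adjusted p = 0.0474). The share of all genes that passed with rescaling was not counted. It was also not counted for the block, the other filters, 1 fit over all 12 libraries or single libraries left out. With 1 fit over all 12 libraries 2 differed between genotypes at 24 hours, and with no filter 1 differed at 0 hours. With single libraries left out, the number of members that passed was 5 to 5 in WT over time, 8 to 10 in β8ITG-cKO over time, 0 to 0 between genotypes at 24 hours, 0 to 2 between genotypes at 0 hours and 1 to 4 in the interaction. The interaction gave 1 without WT 0 hours replicate 1 or β8ITG-cKO 0 hours replicate 3, and 4 without WT 24 hours replicate 2 or replicate 3. Replicate numbers did not pair the libraries: libraries of the same number correlated at −0.22 to 0.08 in their deviations from group means, with 0 of 12 pairs over 0.1. With the replicate number as a block, the counts were 5, 8 and 0 for WT over time, β8ITG-cKO over time and the genotypes at 24 hours, 0 at 0 hours and 2 in the interaction. The cause of these shifts was not tested, beyond the fewer libraries or the added condition of an alternative. Low members are limited by the pseudocount, and read depth is unknown.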

Other observations

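Of 22 relatives of the members in the same transcription factor families, 13 were tested in WT over time and 1 fell (Tfap2b, −0.75, adjusted p = 0.0271), and 14 were tested in β8ITG-cKO LCs, of which 4 rose and 3 fell. Of all genes, 8.81% fell in WT, and 35.4% rose and 10.7% fell in β8ITG-cKO LCs. Tfap2b, an AP-2 relative of Tfap2a that retinal neurons also make, was at 0.956, 1.47 and 0.679 FPKM in WT at 0 hours and 0.135, 0.174 and 0.269 FPKM at 24 hours, but at 0.417, 0.299 and 0.231 FPKM and then 2.28, 2.63 and 3.01 FPKM in β8ITG-cKO LCs. Its direction was thus opposite in the genotypes (interaction 2.22, adjusted p = 0.00155), where the difference of Tfap2a between the genotypes at 24 hours did not pass (−0.54, adjusted p = 0.0942). Between genotypes at 24 hours 13 relatives were tested, and 2 were higher and 1 lower in β8ITG-cKO LCs. Of all genes, 6.29% differed there and 0.644% were lower. At 0 hours 15 were tested, where 4.18% of all genes were higher and the share that were lower was not counted. Of these 15 relatives, 1 was higher and 1 lower. The latter was the small Maf gene Maff, chosen here after its value was seen, at 13.1 ± 4.19 FPKM (SD, n = 3) in WT and 1.90 ± 0.0786 FPKM in β8ITG-cKO LCs (−2.24, adjusted p = 0.00234), while Maf was higher there. Maff is an early response gene in many cells, and Maf is a large Maf protein with a transactivation domain.

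Of 10 lens epithelium markers other than the members, all tested, 2 rose and 3 fell in WT, and 2 rose and 5 fell in β8ITG-cKO LCs, where 20.9% of all genes rose and 8.81% fell in WT, and 35.4% rose and 10.7% fell in β8ITG-cKO LCs. In WT the iron oxidase gene Cp rose (1.29, adjusted p = 0.00843), and the matrix gene Npnt (−2.91, adjusted p = 0.000366) and the amino acid transporter gene Slc38a3 (−2.00, adjusted p = 0.00205) fell. Slc38a3 was at 18.6 ± 3.92 FPKM in WT at 0 hours and 4.04 ± 1.81 FPKM at 24 hours, but at 16.4 ± 2.84 and 15.0 ± 1.46 FPKM in β8ITG-cKO LCs (interaction 1.89, adjusted p = 0.00769). Of the 10 markers, 1 was higher and 2 were lower in the interaction, where 2.56% of all genes were lower. The adhesion gene Cdh1, named after its values were seen, rose in WT (0.44, adjusted p = 0.0474) and fell in β8ITG-cKO LCs (−1.15, adjusted p = 0.000119). At 24 hours Cdh1 was lower in β8ITG-cKO than in WT LCs (−0.92, adjusted p = 0.00982). Of 7 pigment cell genes, 6 were tested over time and 1 fell in each genotype, Oca2 (−2.99 in WT and −3.36 in β8ITG-cKO LCs), while Dct did not pass. Corneal markers fell in 2 of 4 tested stroma genes in WT and 2 of 3 in β8ITG-cKO LCs, Aldh1a1 in both, and in 0 of 4 and 1 of 1 tested epithelial genes, the latter Aldh3a1. Red blood cell genes rose in 5 of 5 cases in β8ITG-cKO LCs and 0 of 5 passed in WT.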
